A study of Saccharomyces cerevisiae with 12 samples.

Results

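The genes for the proteins of the large ribosomal subunit were examined in budding yeast depleted of glutaminyl-tRNA synthetase. They were chosen by symbol, as every listed gene named RPL with a number and, where there are paralogs, the letter A or B, together with RPP0, RPP1A, RPP1B, RPP2A and RPP2B. This gave 81 of 7130 listed genes. Of these, 70 form 35 pairs of A and B copies and 11 are present in 1 copy, so that 46 protein families were covered.

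Both strains were haploid and shared the BY4742 background (MATα his3Δ1 leu2Δ0 lys2Δ0 ura3Δ0). The wild type carried no further change, while in tetO-*GLN4* the native promoter of the synthetase gene had been replaced by the cassette PGLN4::KanMX4-tTA-tetO7, a tet-off promoter that doxycycline shuts off. Each strain was grown in YEPD at 30 °C, either untreated or in 1 μg/ml doxycycline, and RNA from 3 cultures of each of the 4 groups was sequenced, 12 samples in all. The values are FPKM, fragment counts scaled to the length of the gene and to the size of the library. A single value per gene and group stands for the 3 cultures together, so the ± after each FPKM below is the SD taken from the deposited 95% interval and not a spread between cultures that could be computed here. Each strain was normalized apart, and levels were compared within a strain only.

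The large subunit of the cytoplasmic ribosome carries the peptidyl transferase centre, the tunnel through which the nascent chain leaves and the stalk that recruits elongation factors. Because an ancestral genome duplication left many of its proteins encoded by a pair of nearly identical genes, the summed output of the copies sets the supply of the protein. Ribosomal protein genes are among the most transcribed genes of growing yeast. Rap1, Fhl1 and Ifh1 bind at most of their promoters, and the TOR and protein kinase A pathways are known to adjust them to nutrients.

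*GLN4* itself stood at 199.3 FPKM (95% interval 157.5 to 241.1) in the untreated wild type and at 199.2 FPKM with doxycycline, and at 30.5 FPKM (95% interval 24.1 to 36.9) in treated tetO-*GLN4*. In untreated tetO-*GLN4* the gene exceeded the fragment limit of the program and has no value. LEU2, LYS2 and URA3, which are deleted in both strains, were listed at 0 in all 4 groups. The 4 markers of α cells were present in the wild type but lower in treated tetO-*GLN4* than without doxycycline, with log2 ratios from -6.30 for MF(ALPHA)2 to -5.45 for SAG1. Among the 4 markers of a cells the log2 ratios ran from 0.43 for MFA2 to 1.36 for BAR1. In tetO-*GLN4*, BAR1 went from 3.67 to 9.43 FPKM and STE2 from 7.10 to 10.9 FPKM, both low levels. MFA1 went from 72.2 to 141.5 FPKM (treated 95% interval 69.5 to 213.4) and MFA2 from 56.6 to 76.5 FPKM (29.8 to 123.3). The part of these marker changes in the results below was not tested.

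Most large-subunit genes were lower when *GLN4* was shut off. In tetO-*GLN4*, 69 of the 81 were lower with doxycycline and 0 were higher, by a z test of the log2 ratio of FPKM with Benjamini-Hochberg adjustment over all 6553 tested genes at a threshold of 0.05. Among all tested genes 20.1% were called lower and 18.9% higher. The SD of a log2 ratio came from the deposited 95% intervals, and no pseudocount was added. The remaining 12 genes had no call, although 9 of them also had a log2 ratio below 0. The median log2 ratio of the 81 genes was -1.05, with an interquartile range of -1.17 to -0.89, against 0.01 over all tested genes. Their median level was 4300.5 FPKM without and 2245 FPKM with doxycycline. The level was at least 2-fold lower in 50 members, called or not, and in 10.1% of all tested genes. Another rule, that the deposited intervals of both conditions do not overlap, called 69 members lower, beside 16.1% of all genes.

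No member was called in the wild type, where doxycycline meets the native promoter. There 0 of 81 members were called in either direction by the z test, while 0.0457% of 6560 genes were called lower and 0.061% higher. At an unadjusted p under 0.05 the count was also 0, beside 13 lower and 14 higher of all 6560 genes. Likewise 0 members had intervals that lay apart, beside 0.061% of all genes lower and 0.0915% higher by that rule. With so few calls over all genes, a count of 0 does not set the members apart. None was at least 2-fold lower, against 0.518% of all genes, and 1 was at least 2-fold higher, against 0.61%. That member was RPL28, with a wild-type log2 ratio of 1.43 and an SD of 2.01. Their median log2 ratio was 0.01. Across the 65 members that share no locus with another listed gene the wild-type log2 ratios had an SD of 0.07, while the median SD of a single ratio from its interval was 0.22, so that the intervals were wider than the scatter of the members.

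The difference between the strains was tested directly as the log2 ratio in tetO-*GLN4* minus that in the wild type. By the z test it was called lower for 60 members and higher for 0, with 21 not called. Over the 6538 genes tested in both strains 12.5% were called lower and 11% higher.

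**Figure D1:**
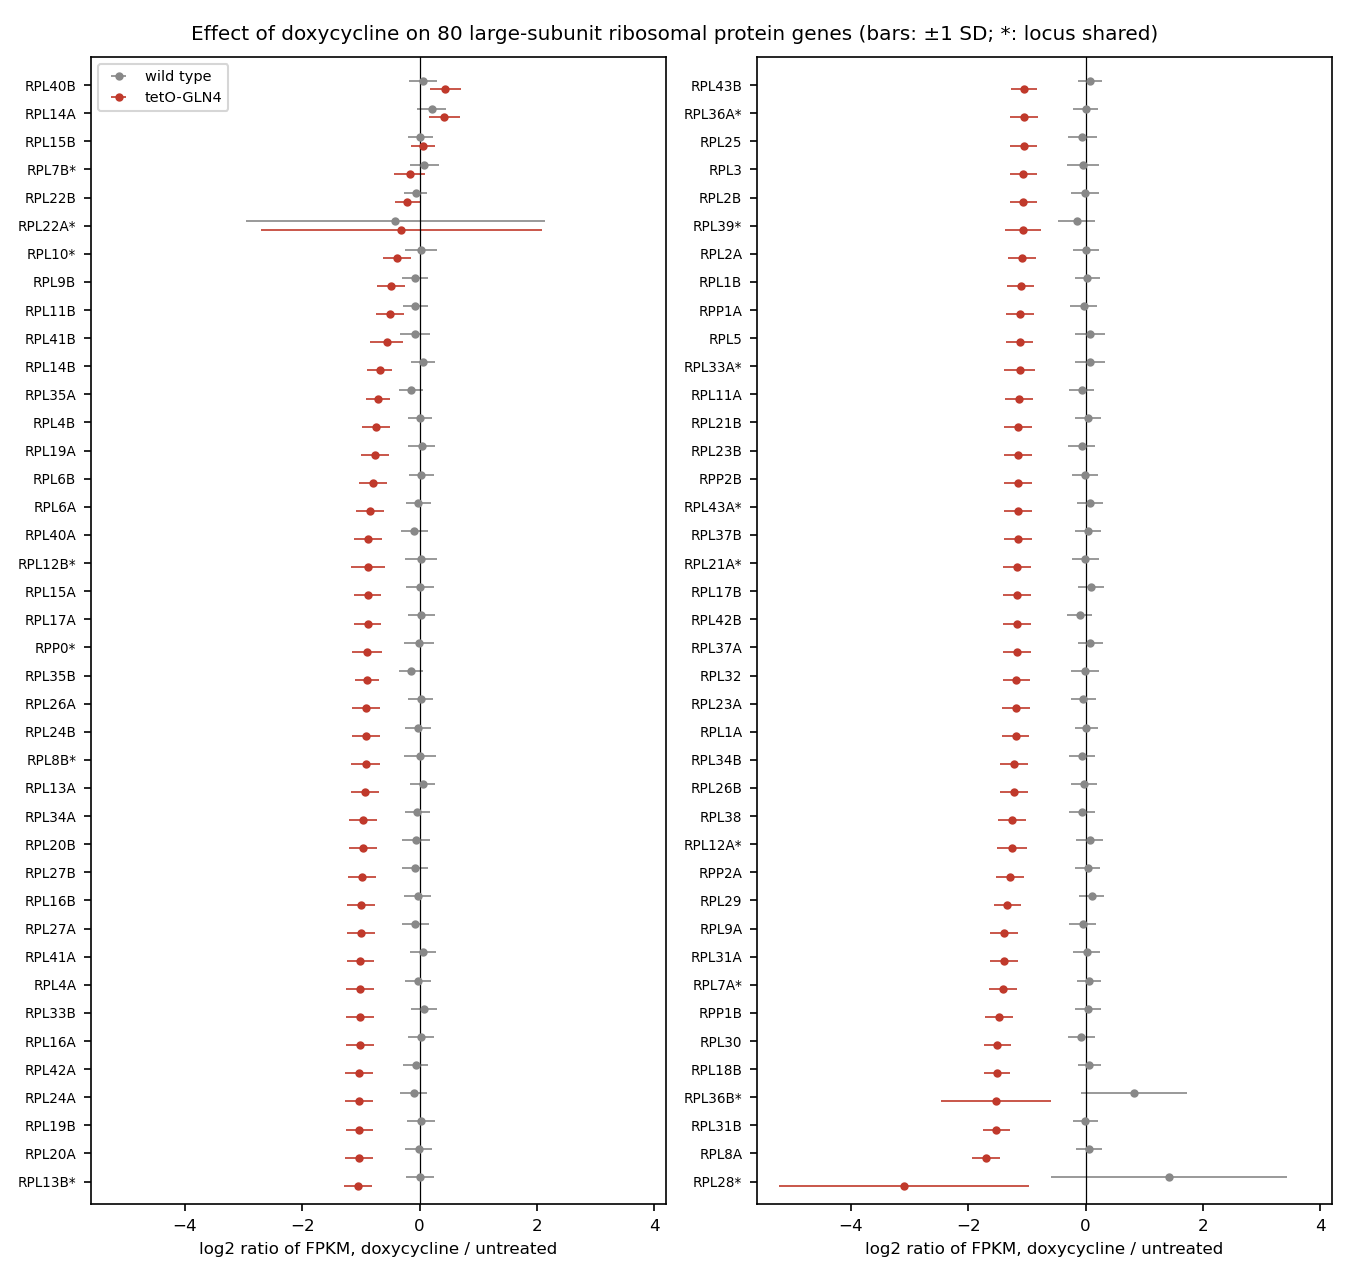
Log2 of treated over untreated FPKM for 80 of the 81 genes, for wild-type (grey) and tetO-*GLN4* (red) cells, with bars of 1 SD from the deposited intervals and an asterisk where the locus is shared with another listed gene. Most grey points lie around 0, most red points lie near -1, and the widest bars belong to RPL28, RPL22A and RPL36B.

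The levels are relative, since FPKM is scaled to the size of a library and is not a count per cell. Whether a cell held less of these mRNAs, or more of others, cannot be told apart in such data. The sum of FPKM was also lower in treated tetO-*GLN4*, and scaling both conditions to the same sum added 0.62 to every log2 ratio, while weighting the centre by FPKM added 0.67. Relative to the same sum the median of the members was -0.43, the lower calls fell from 69 to 25 and 3 members, RPL14A, RPL15B and RPL40B, were called higher. Under that scaling 420 of all genes were called lower and 3390 higher, in place of 1318 and 1236. The share of the members in the summed FPKM of all genes with a value rests on the same-sum scaling as well. It was 19.4% in untreated and 19.3% in treated wild-type cells. For tetO-*GLN4* it went from 18.5% untreated to 13.4% treated.

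The stalk is the flexible arm of acidic proteins that binds the elongation factors, with P0 at its base next to L12. All 7 of its genes were lower in tetO-*GLN4*, with a median log2 ratio of -1.15. RPP0 (YLR340W, chromosome XII, 805887 to 806825), which anchors the stalk, was measured at 2304 ± 294 FPKM in untreated and 2295 ± 286 in treated wild-type cells, then 2715 ± 337 FPKM in untreated and 1461 ± 185 in treated tetO-*GLN4* cells. Its log2 ratio was -0.89 ± 0.26, and the locus is shared with YLR339C. RPP1A (YDL081C, chromosome IV, 309802 to 310122) had 10651 ± 1179 FPKM in untreated and 10419 ± 1147 in treated wild-type cells, then 11775 ± 1365 FPKM in untreated and 5447 ± 641 in treated tetO-*GLN4* cells. RPP1B (YDL130W, chromosome IV, 229906 to 230527) had 8199 ± 882 FPKM in untreated and 8476 ± 913 in treated wild-type cells, then 10026 ± 1171 FPKM in untreated and 3626 ± 424 in treated tetO-*GLN4* cells. In both genes the 2 intervals lay apart in tetO-*GLN4* and overlapped in the wild type, and the tetO-*GLN4* log2 ratios were -1.11 ± 0.24 and -1.47 ± 0.24. RPP2A (YOL039W, chromosome XV, 254297 to 254617) had 6591 ± 695 FPKM in untreated and 6772 ± 715 in treated wild-type cells, then 8032 ± 944 FPKM in untreated and 3301 ± 385 in treated tetO-*GLN4* cells. RPP2B (YDR382W, chromosome IV, 1239492 to 1239824) had 9577 ± 1059 FPKM in untreated and 9529 ± 1053 in treated wild-type cells, then 11328 ± 1311 FPKM in untreated and 5099.9 ± 601 in treated tetO-*GLN4* cells. Their log2 ratios of -1.28 ± 0.24 and -1.15 ± 0.24 differed by less than the SD of either. RPL12A and RPL12B, which encode identical proteins, had log2 ratios of -1.25 ± 0.26 and -0.88 ± 0.28, but both genes share their locus with an opposite open reading frame.

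RPL5 and RPL11A, which carry the 5S rRNA into the subunit, were lower, while RPL11B was not called. RPL5 (YPL131W, chromosome XVI, 303121 to 304014) was present at 4585 ± 572 FPKM in untreated and 4859 ± 609 in treated wild-type cells, then 5686 ± 626 FPKM in untreated and 2617 ± 302 in treated tetO-*GLN4* cells. The log2 ratio was -1.12 ± 0.23. RPL11A fell from 2012 ± 237 to 921 ± 106 FPKM in tetO-*GLN4*, and the RPL11B values were 1709 ± 199.8 and 1200.4 ± 139.8 FPKM. The 2 copies of RPL11 share 60.9% of their coding 50-mers with other places in the genome, so how reads were divided between them can affect both values. Summed over both copies the log2 ratio was -0.81 ± 0.17.

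Every one of the 14 genes of the polypeptide exit tunnel was lower, with a median log2 ratio of -1.02. RPL25 (YOL127W, chromosome XV, 80348 to 81190), which docks the signal recognition particle at the tunnel exit, had 10086 ± 1220.3 FPKM in untreated and 9722 ± 1154 in treated wild-type cells, then 9459.6 ± 1081 FPKM in untreated and 4547 ± 533 in treated tetO-*GLN4* cells. RPL39 (YJL189W, chromosome X, 75933 to 76474), a small protein that lines the tunnel, had the highest level of all members in the untreated wild type, at a locus shared with BUD19. Its values were 57912 ± 8327 FPKM in untreated and 52061 ± 8418 in treated wild-type cells, then 54129 ± 8529 FPKM in untreated and 25968 ± 3716 in treated tetO-*GLN4* cells. For RPL25 and RPL39 the treated interval lay below the untreated one in tetO-*GLN4* and overlapped it in the wild type, with tetO-*GLN4* log2 ratios of -1.06 ± 0.24 and -1.06 ± 0.31. In the pairs of this group, RPL31A fell from 11328 ± 1311 to 4310.3 ± 506 FPKM and RPL31B fell from 4635 ± 545 to 1615 ± 179.9 FPKM. RPL31B (YLR406C, chromosome XII, 931065 to 931755), with a log2 ratio of -1.52 ± 0.23, was among the 5 lowest members. The difference of the copies, A minus B, was 0.13 (95% interval -0.53 to 0.78). RPL26A and RPL26B had log2 ratios of -0.90 ± 0.24 and -1.22 ± 0.24, with a difference of 0.32 (95% interval -0.34 to 0.98). RPL17A and RPL17B had -0.89 ± 0.24 and -1.17 ± 0.24, with a difference of 0.28 (95% interval -0.38 to 0.94). None of these 3 intervals excluded 0. RPL4A and RPL4B, whose proteins reach into the tunnel wall, had log2 ratios of -1.01 ± 0.24 and -0.74 ± 0.24, and RPL35A and RPL35B, at the tunnel exit, had -0.70 ± 0.21 and -0.89 ± 0.21.

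Among the proteins that join late or lie on the side facing the small subunit 7 of 10 genes were lower, with RPL10, RPL40B and RPL41B without a call and a median of -0.96. RPL29 (YFR032C-A, chromosome VI, 223258 to 223437), a small non-essential protein, had 25025 ± 2554 FPKM in untreated and 26927 ± 2769.8 in treated wild-type cells, then 28062 ± 3308 FPKM in untreated and 11148 ± 1244 in treated tetO-*GLN4* cells. Its log2 ratio of -1.33 ± 0.23 was below the median of the 81. RPL10 (YLR075W, chromosome XII, 282927 to 283592), which joins in the cytoplasm and completes the peptidyl transferase centre with the help of the chaperone Sqt1, had 7641 ± 1013 FPKM in untreated and 7767 ± 1028 in treated wild-type cells, then 7956 ± 909 FPKM in untreated and 6099 ± 709 in treated tetO-*GLN4* cells. With a log2 ratio of -0.38 ± 0.24 it had no call and was the single-copy gene with the smallest change. It shares its locus with YLR076C on the opposite strand, and the sum over that locus had a log2 ratio of -0.39 ± 0.23.

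The other single-copy genes were lower except RPL28. RPL3 (YOR063W, chromosome XV, 444686 to 445849), which lies by the peptidyl transferase centre, had 5402 ± 714 FPKM in untreated and 5250.4 ± 687 in treated wild-type cells, then 6576 ± 709.6 FPKM in untreated and 3156 ± 352 in treated tetO-*GLN4* cells. RPL30 (YGL030W, chromosome VII, 439091 to 439638), known for repressing the splicing of its own transcript, had 14461 ± 1674 FPKM in untreated and 13774 ± 1565 in treated wild-type cells, then 14025 ± 1619 FPKM in untreated and 4957 ± 582 in treated tetO-*GLN4* cells. The log2 ratios were -1.06 ± 0.22 and -1.50 ± 0.24. RPL32 (YBL092W, chromosome II, 45978 to 46370) had 11986 ± 1425 FPKM in untreated and 11924 ± 1410.4 in treated wild-type cells, then 12392 ± 1406 FPKM in untreated and 5479 ± 642 in treated tetO-*GLN4* cells. RPL38 (YLR325C, chromosome XII, 781143 to 781379) had 15488 ± 1670.4 FPKM in untreated and 14864 ± 1579 in treated wild-type cells, then 14512 ± 1708 FPKM in untreated and 6092 ± 701 in treated tetO-*GLN4* cells. Log2 ratios of -1.18 ± 0.24 and -1.25 ± 0.24 placed both below the median. RPL28 (YGL103W, chromosome VII, 310967 to 311927), the gene at which cycloheximide resistance mutations arise, had 154 ± 183 FPKM in untreated and 414 ± 304 in treated wild-type cells, then 302 ± 221 FPKM in untreated and 35.3 ± 45.3 in treated tetO-*GLN4* cells. The SDs exceeded the values in 2 of the 4 groups and were large in the others, and its log2 ratio of -3.10 ± 2.13, the lowest of all members, did not pass the test.

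RPL28 belongs to 16 members whose listed locus also holds 17 other listed genes. The file gives these genes an FPKM of their own from the same stretch, and for 3 members the other gene took most of the signal. On the opposite strand YGL102C held 98.5% of the FPKM multiplied by length of the pair with RPL28 in the untreated wild type, BUD28 held 91.1% with RPL22A, and YPL250W-A held 87.2% with RPL36B. These were also the 3 members with an SD of the log2 ratio above 0.5. RPL22A had 520.0 ± 420.4 FPKM in untreated and 391 ± 612 in treated wild-type cells, then 187 ± 228 FPKM in untreated and 150.5 ± 169 in treated tetO-*GLN4* cells. RPL36B had 1251 ± 533 FPKM in untreated and 2213 ± 1008 in treated wild-type cells, then 1866 ± 1059.6 FPKM in untreated and 651 ± 205 in treated tetO-*GLN4* cells. The log2 ratios were -0.31 ± 2.40 and -1.52 ± 0.94, and neither passed the test. Over the whole locus, the log2 ratio was -1.00 ± 0.24 for RPL28, -1.35 ± 0.27 for RPL22A and -1.27 ± 0.29 for RPL36B, and all 3 sums were called lower. With locus sums in place of the shared members 72 of 81 were lower. Of the 65 members that share no locus 58 were lower and 7 had no call.

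**Figure D2:**
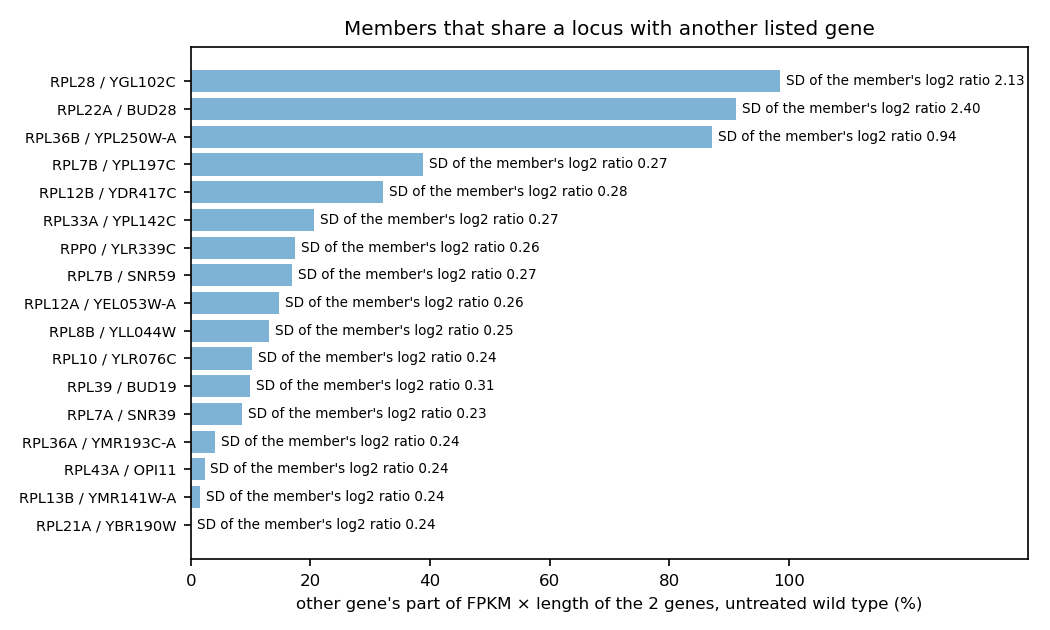
Part of the other listed gene in the FPKM multiplied by length of a member and that gene, in percent, in the untreated wild type, for each of the 17 combinations, with the SD of the member's log2 ratio in tetO-*GLN4* beside each bar. YGL102C (98.5%), BUD28 (91.1%) and YPL250W-A (87.2%) stand apart, and their partners have the largest SDs.

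A few copies had log2 ratios near or above 0. The 5 highest log2 ratios belonged to RPL40B, RPL14A, RPL15B, RPL7B and RPL22B, none of which was called. RPL40B (YKR094C, chromosome XI, 617996 to 618750), which encodes a ubiquitin fused to a large-subunit protein, had 72.9 ± 8.51 FPKM in untreated and 76.0 ± 8.92 in treated wild-type cells, then 40.8 ± 5.42 FPKM in untreated and 55.4 ± 6.89 in treated tetO-*GLN4* cells. RPL14A (YKL006W, chromosome XI, 431906 to 432720) had 44.3 ± 5.38 FPKM in untreated and 51.1 ± 6.18 in treated wild-type cells, then 34.7 ± 4.58 FPKM in untreated and 46.5 ± 5.80 in treated tetO-*GLN4* cells. RPL15B (YMR121C, chromosome XIII, 509734 to 510348) had 134 ± 13.7 FPKM in untreated and 136 ± 13.9 in treated wild-type cells, then 137 ± 13.9 FPKM in untreated and 143 ± 14.4 in treated tetO-*GLN4* cells. These were the 3 members with the lowest level in the untreated wild type, and the log2 ratios in tetO-*GLN4* were 0.44 ± 0.26, 0.42 ± 0.26 and 0.06 ± 0.21. In each case the partner was the major copy and was lower in tetO-*GLN4*. RPL40A fell from 7285 ± 844 to 3984 ± 469 FPKM. RPL14B fell from 918 ± 101 to 573 ± 59.7 FPKM. RPL15A fell from 6473 ± 728 to 3512 ± 407 FPKM. The log2 ratios of these major copies were -0.87 ± 0.24, -0.68 ± 0.22 and -0.88 ± 0.23.

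The start of the coding sequence of these copies is shown because the bases that differ are what allows a read to be assigned to 1 of them. The lines give the first 78 coding bases, 5′ to 3′, from the RefSeq R64 genome, with introns removed and the bases that differ between the copies in capitals. RPL41A and RPL41B are shown whole and differ at 1 base in these 78.
RPL40A: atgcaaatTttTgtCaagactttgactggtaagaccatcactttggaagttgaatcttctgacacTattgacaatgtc
RPL40B: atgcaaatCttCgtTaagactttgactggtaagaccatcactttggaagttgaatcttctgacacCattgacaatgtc
RPL14A: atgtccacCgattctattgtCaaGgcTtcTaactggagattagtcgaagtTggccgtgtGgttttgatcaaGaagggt
RPL14B: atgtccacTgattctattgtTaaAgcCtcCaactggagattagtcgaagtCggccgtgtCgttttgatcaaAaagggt
RPL15A: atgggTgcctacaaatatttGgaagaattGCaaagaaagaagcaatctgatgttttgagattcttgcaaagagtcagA
RPL15B: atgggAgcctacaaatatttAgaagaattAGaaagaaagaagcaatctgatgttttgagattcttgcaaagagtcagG
RPL8A: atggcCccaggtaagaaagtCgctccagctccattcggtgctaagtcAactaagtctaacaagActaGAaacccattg
RPL8B: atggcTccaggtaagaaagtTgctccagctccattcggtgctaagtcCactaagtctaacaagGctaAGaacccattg
RPL41A: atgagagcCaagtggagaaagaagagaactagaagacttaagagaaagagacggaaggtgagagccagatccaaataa
RPL41B: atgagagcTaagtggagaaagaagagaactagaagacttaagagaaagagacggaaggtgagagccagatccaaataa

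Of the coding 50-mers of the members, a median of 6.45% occur elsewhere in the genome, and the share was 0% in 31 members, under 10% in 45 and over 50% in 12. The share was 14.2% for RPL40, 11.8% for RPL15, 42.1% for RPL14, 6.93% for RPL8 and 69.0% for RPL41. The largest shares, which leave the fewest bases to tell copies apart, were 81.0% in RPL1, 80.6% in RPL35 and 72.7% in RPL4. In these 3 pairs the A minus B differences were -0.09 (95% interval -0.72 to 0.55), 0.19 (95% interval -0.38 to 0.77) and -0.26 (95% interval -0.92 to 0.40), and all intervals included 0. RPL1A and RPL1B, whose protein forms the mobile L1 stalk, had log2 ratios of -1.19 ± 0.22 and -1.11 ± 0.23.

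Over the 35 pairs, the interval of the difference between the copies excluded 0 in 6 in tetO-*GLN4* and in 0 in the wild type. These intervals were not corrected for 35 comparisons, and with the SD of each copy doubled 0 of the 6 remained. They also treat the errors of the copies as independent, which may not hold where copies share reads. The differences, A minus B, were -1.31 (95% interval -2.01 to -0.62) for RPL40, -1.24 (95% interval -1.94 to -0.55) for RPL7, -0.94 (95% interval -1.55 to -0.33) for RPL15, -0.90 (95% interval -1.56 to -0.24) for RPL9, -0.78 (95% interval -1.46 to -0.11) for RPL8 and 1.10 (95% interval 0.43 to 1.77) for RPL14. RPL7 and RPL9 were named after their values were seen, though RPL7B was already among the 5 highest members. The median size of a difference was 0.19, with a median SD of 0.34. In 12 pairs the copies encode the same protein, and the protein identity of the others ran down to 57.8% in RPP1. Of the 17 pairs in which under 10% of 50-mers occur elsewhere in both copies, 1 pair, RPL8, had an interval that excluded 0. Of the 11 of these pairs that also share no locus, 0 had such an interval.

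RPL8A (YHL033C, chromosome VIII, 35255 to 36025) had 1747 ± 188 FPKM in untreated and 1825 ± 197 in treated wild-type cells, then 1963 ± 229 FPKM in untreated and 603 ± 69.8 in treated tetO-*GLN4* cells. RPL8B (YLL045C, chromosome XII, 47859 to 48629) had 3783 ± 488 FPKM in untreated and 3794 ± 509 in treated wild-type cells, then 4249 ± 527 FPKM in untreated and 2245 ± 272 in treated tetO-*GLN4* cells. Both copies were lower, RPL8A with a log2 ratio of -1.70 ± 0.24, the lowest called of all members, and RPL8B with -0.92 ± 0.25. RPL8 is a protein of early subunit assembly. RPL8B shares its locus with YLL044W, and the sum over that locus had a log2 ratio of -0.97 ± 0.24. RPL9A fell from 3443 ± 401 to 1320.1 ± 155 FPKM and RPL9B went from 1561 ± 185 to 1117 ± 130.4 FPKM, the latter without a call. RPL7A fell from 1197 ± 141 to 450.2 ± 50.6 FPKM, while RPL7B went from 209 ± 27.4 to 187 ± 24.2 FPKM. Both RPL7 genes share their loci with small nucleolar RNA genes, SNR39 and SNR59, and RPL7B also with YPL197C. The sums over these loci had log2 ratios of -1.19 ± 0.47 for RPL7A and 0.17 ± 0.53 for RPL7B, with wider SDs than the members alone. The part of the overlapping genes in the difference of the RPL7 copies was not tested.

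Shares of the A copy describe these pairs without reference to other genes. For RPL9 the A copy held 60.9% and 61.5% of the wild-type sum, and 68.8% ± 3.56 and 54.2% ± 4.10 of the tetO-*GLN4* sum, each untreated first and treated second. For RPL7 its share was 79.6% and 79.3% of the wild-type sum, and 85.1% ± 2.23 and 70.7% ± 3.56 of the tetO-*GLN4* sum. For RPL8 it was 31.6% and 32.5% of the wild-type sum, and 31.6% ± 3.68 and 21.2% ± 2.80 of the tetO-*GLN4* sum. In RPL14 the A copy held 4.93% and 5.43% of the wild-type sum, and 3.64% ± 0.602 and 7.50% ± 1.13 of the tetO-*GLN4* sum. In RPL15 it held 97.9% and 97.9% of the wild-type sum, and 97.9% ± 0.307 and 96.1% ± 0.577 of the tetO-*GLN4* sum. The RPL40 pair had 99.1% and 99.0% of the wild-type sum, and 99.4% ± 0.0977 and 98.6% ± 0.232 of the tetO-*GLN4* sum. In 6 of 35 pairs the 95% interval of the change in share excluded 0, and these were the pairs named above. The copy that was the larger one without doxycycline became the smaller one with it in 3 pairs, RPL11, RPL34 and RPL42, in each of which the interval of the difference included 0. The copies with the smaller level in the untreated wild type had the higher log2 ratio in 18 pairs and the lower in 17. In the 3 pairs where the smaller copy had under 10% of the level of its partner, all 3 smaller copies had the higher log2 ratio. These are RPL40B, RPL14A and RPL15B, already named for their high log2 ratios. Among 8 pairs without a shared locus whose smaller copy had under 50% of its partner's level, the smaller copy was higher in 5 and lower in 3.

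**Figure D3:**
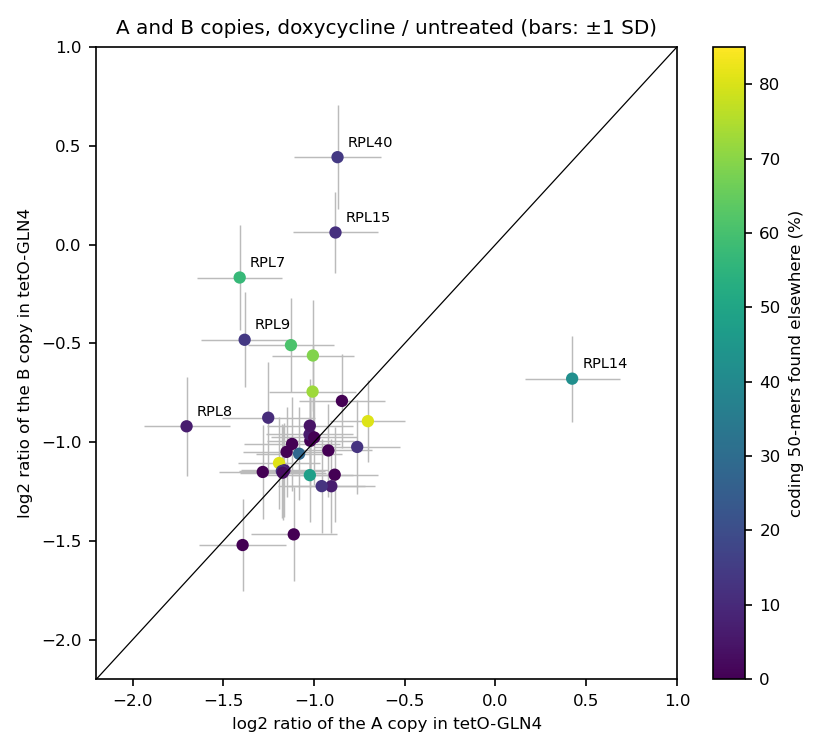
Log2 ratio of the A copy against that of the B copy in tetO-*GLN4*, with bars of 1 SD, for 32 pairs in which both SDs are under 0.5, coloured by the percent of coding 50-mers found elsewhere in the genome. Most pairs lie near the diagonal, and the 6 labelled pairs lie off it.

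**Figure D4:**
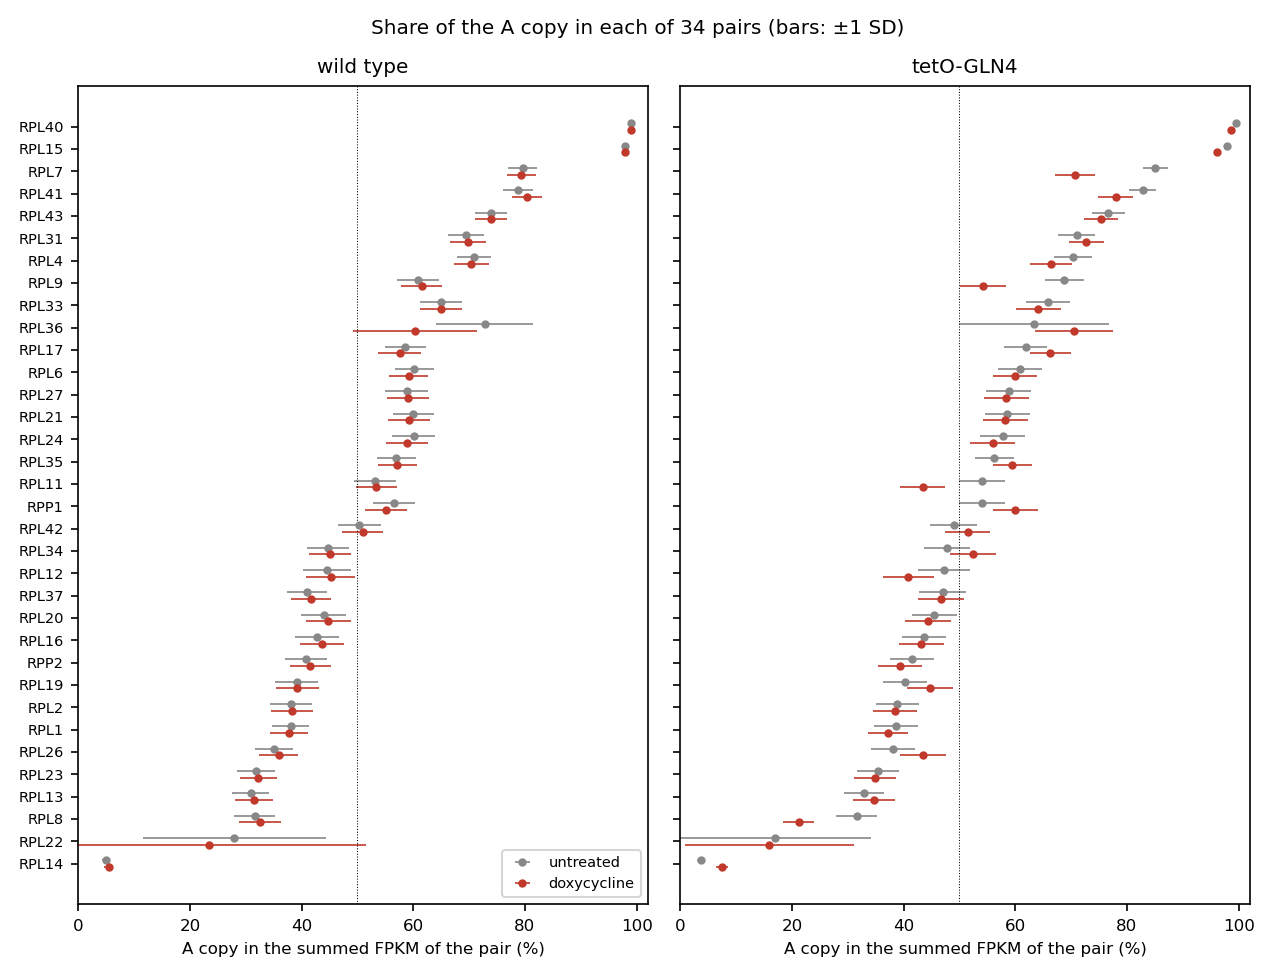
Share of the A copy in the summed FPKM of 34 of the 35 pairs, in percent with bars of 1 SD, without doxycycline (grey) and with it (red), with 1 panel per strain. The grey and red points nearly coincide for most pairs in wild-type cells. Exceptions are RPL36 (72.8% to 60.3%) and RPL22 (28.0% to 23.4%), which have wide SDs and shared loci. After *GLN4* shut-off the share moved for RPL7 (85.1% to 70.7%), RPL9 (68.8% to 54.2%) and RPL8 (31.6% to 21.2%). For RPL11 it went from 54.1% to 43.4%, with an interval of the change that included 0.

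Pairs with clearly separable copies and the smallest differences were RPL37, RPL21 and RPL27, at -0.02 (95% interval -0.68 to 0.64), -0.02 (95% interval -0.68 to 0.64) and -0.02 (95% interval -0.68 to 0.64). RPL37A and RPL37B had log2 ratios of -1.17 ± 0.24 and -1.15 ± 0.24, and RPL21A and RPL21B had -1.16 ± 0.24 and -1.14 ± 0.24. RPL27A and RPL27B had -1.00 ± 0.24 and -0.98 ± 0.24. RPP1, at 0.36 (95% interval -0.31 to 1.02), and RPP2, at -0.13 (95% interval -0.79 to 0.53), were the pairs with the least similar proteins, and neither interval excluded 0. RPL18B (YNL301C, chromosome XIV, 63570 to 64562), also among the 5 lowest members, fell from 628 ± 70.0 to 221 ± 22.2 FPKM, a log2 ratio of -1.51 ± 0.22.

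Summing the copies removes the question of how reads were divided between them. Of the 46 family sums 43 were lower in tetO-*GLN4* and 0 higher by their 95% intervals, with a median log2 ratio of -1.06. In the wild type 0 sums were lower or higher. The 3 sums that were not lower were RPL10, RPL22 and RPL28, and each of them involves a shared locus. For RPL22 the sum had -0.22 ± 0.43. RPL22B (YFL034C-A, chromosome VI, 64243 to 64932), which shares no locus and no coding 50-mers with another place, had 1339.6 ± 134 FPKM in untreated and 1278 ± 127 in treated wild-type cells, then 918 ± 100.5 FPKM in untreated and 796 ± 83.4 in treated tetO-*GLN4* cells. Its log2 ratio was -0.21 ± 0.22, without a call, and the intervals of both conditions overlapped in each strain. Among the 33 families that share no locus all 33 sums were lower, from -1.50 for RPL30 to -0.62 for RPL14.

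Levels spanned a wide range. In the untreated wild type the members ran from 44.3 FPKM for RPL14A to 57912 FPKM for RPL39, a 1308-fold range. The 3 highest were RPL39, RPL41A and RPL29, and the 3 lowest were RPL14A, RPL40B and RPL15B. The listed lengths were 156, 78 and 180 bases for the highest and 417, 387 and 615 bases for the lowest. FPKM is scaled by length, and the part of gene length in this range was not tested. RPL41A (YDL184C, chromosome IV, 130407 to 130484), which encodes a very short peptide at the interface of the subunits, had 30156 ± 3249 FPKM in untreated and 31472 ± 3456 in treated wild-type cells, then 29538 ± 3133 FPKM in untreated and 14701 ± 1696 in treated tetO-*GLN4* cells. Its copy RPL41B had 8129.9 ± 998 FPKM in untreated and 7666 ± 977 in treated wild-type cells, then 6122 ± 815 FPKM in untreated and 4147 ± 587 in treated tetO-*GLN4* cells. The log2 ratios were -1.01 ± 0.23 and -0.56 ± 0.28, the second without a call. Members with a higher level tended to have the lower log2 ratios. Over the 81 genes the Spearman correlation of level and log2 ratio was -0.35, over the 65 that share no locus -0.46, and over the 35 of these with under 10% of 50-mers elsewhere -0.60. This is a correlation across genes of the same libraries, which are not independent, and is given as a description. Of the members that share no locus, the 10 under 1000 FPKM in the untreated wild type had a median log2 ratio of -0.72, and the 55 at or above it had -1.06. A difference by level was also present outside the ribosomal protein genes. There the median was -0.12 for 3337 genes from 40 to under 1000 FPKM and -0.94 for 186 at 1000 FPKM or more.

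**Figure D5:**
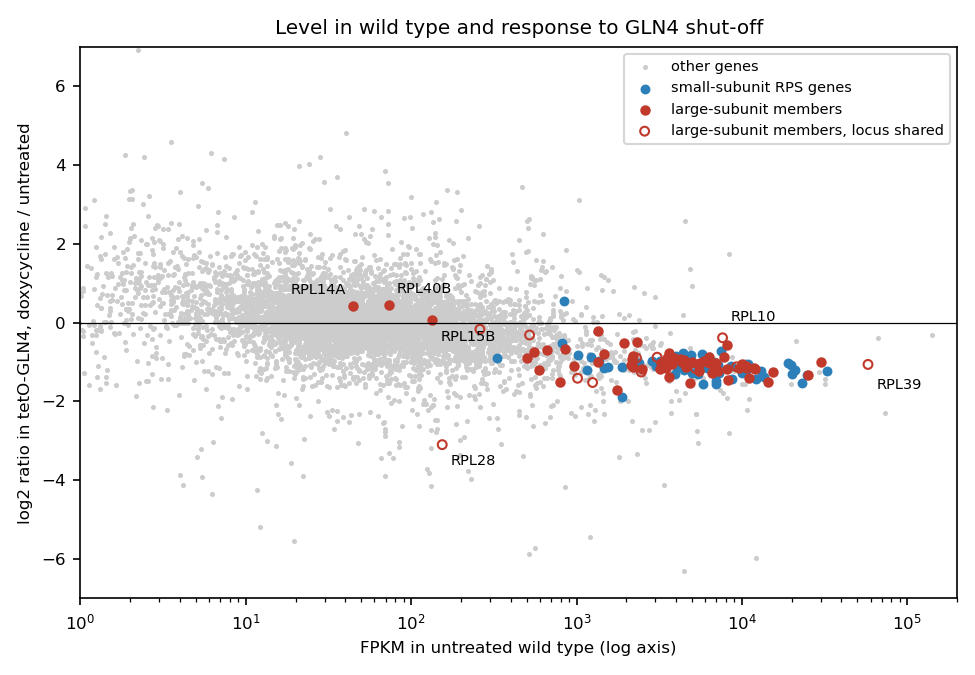
FPKM in the untreated wild type (log axis) against the log2 ratio in tetO-*GLN4*, for the large-subunit members (red, open where the locus is shared), the small-subunit RPS genes (blue) and other genes (grey). The members run from 44.3 FPKM for RPL14A to 57912 FPKM for RPL39, and those above 1000 FPKM lie below 0.

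Other gene groups are given beside the 20.1% of all tested genes that were called lower and the 18.9% called higher. Of 56 small-subunit RPS genes 54 were lower and 1 higher in tetO-*GLN4*, with a median log2 ratio of -1.13. The lowest were RPS22B at -1.89 ± 0.22 and RPS26B at -1.57 ± 0.24, and the highest RPS14B at 0.54 ± 0.22, called higher, and RPS9A at -0.50 ± 0.23. Genes at 1000 FPKM or more in the untreated wild type, without ribosomal protein genes, had 121 lower and 15 higher of 186 and a median of -0.94, beside -1.05 for the members. Of 34 mitochondrial MRPL genes, whose ribosome is a separate one, 8 were lower and 1 higher with a median of -0.20, a share of lower genes near that of all genes.

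Factors that assemble the large subunit had a median nearer to 0. Of 47 assembly factors 26 were lower and 1 higher, with a median of -0.54. MDN1, the giant ATPase that strips factors from the precursor, had -1.60 ± 0.23, and NOP7, a factor of early nucleolar particles, had -1.33 ± 0.24. SSF1, with 0.66 ± 0.22, was called higher, and RSA4, a partner of MDN1, had 0.41 ± 0.22 without a call. Of 20 regulators of ribosomal protein genes 3 were lower and 2 higher, with a median of -0.06, so that both counts were below the shares over all genes. RAP1, the activator bound at these promoters, had -0.54 ± 0.21, and CKB2, a casein kinase 2 subunit, had -0.68 ± 0.21. CRF1, a corepressor of these genes, had 0.74 ± 0.23, and SCH9, a kinase downstream of TOR, had 0.62 ± 0.22.

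Medians were similar whatever the copy number and with or without introns. Of the 11 single-copy genes 9 were lower with a median of -1.12, and of the 70 in pairs 60 with a median of -1.02. Of 53 genes with an intron 46 were lower with a median of -1.05, and of 28 without one 23 with a median of -1.04. No test of these differences was run.

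The 500 bases before the coding start were searched on both strands for letters of known sites. The Rap1 motif CACCCNNAC was present in 24.7% of member promoters and in 4.21% of 6005 genes, Fhl1 GACGCA in 18.5% and 10.9%, and RRPE AAAAATTTT in 12.3% and 9.44%. PAC GATGAG was present in 22.2% and 28.2%, Gcn4 TGACTC in 3.70% and 12.6%, and the spaced Abf1 motif, TCA and ACG with 6 free bases between, in 14.8% and 22.7%. The Rap1 matches lay 163 to 451 bases before the coding start with a median of 334. Members with a Rap1 match had a median log2 ratio of -1.02 and members without it -1.06. The windows below show matches, in capitals, of 3 members that had no call and of RPL8A, the lowest called, on the strand of the gene from the RefSeq R64 genome. A match is a description only, and the letters were found in members that were called lower and in members that were not.
RPL14A: cgcaaataCACCCATACactatttt
RPL40B: gtgtagttGTCTGGGTGcaatcttt
RPL22B: catgtcaaCACCCGTACatattcag
RPL8A: gaagaaaaCACCCAAACatatctag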

How the data were processed

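Polyadenylated RNA of 12 cultures was sequenced with a stranded library kit. Per the labels and the study's methods, reads were mapped with TopHat 1.4.0, and Cuffdiff (version not given in the sources used here) made the deposited FPKM values, which the authors normalized within a strain and scaled by gene length, with 1 value and a 95% confidence interval per gene and condition over 3 cultures. How reads matching several places were divided, and whether counting used the strand, is not given in the sources used here. The intervals are Cuffdiff's own, and no values per culture or read counts were analysed, so the depth is unknown. The 2 tables with the authors' own test (fold changes, p-values and q-values) were not used.

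The SD of an FPKM was the distance to its upper bound divided by 2, and over the members its median was 11.0% (wild type) and 11.7% (tetO-*GLN4*) of the FPKM. Log2 ratios were tested with a z test and Benjamini-Hochberg adjustment over all genes with a value above 0 in both conditions, and differences between strains and copies used the same SDs. Loci and lengths were compared with the R64 annotation: all 81 lengths equalled its coding length. Coding 50-mers were searched in the R64 genome, both strands. Python 3.11.15, pandas 2.3.3, numpy 2.4.6 and scipy 1.17.1 were used, and the tests were tested on simulated data. Error was first simulated on the linear FPKM scale, where the z test called too many unchanged genes, most of them with wide intervals. A simulation with error on the log scale, which the test assumes, was added after that outcome was seen and gave few such calls. Which scale describes the deposited intervals is not known, so calls of genes with wide intervals, and with them the shares called over all genes, are less certain than calls of genes with narrow ones.

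Members and lists were chosen with earlier results of these data known. Named were the P stalk and L12 genes, all single-copy members, the 5 highest and 5 lowest log2 ratios, the 3 highest and 3 lowest levels, the copies of the 6 pairs with the largest and the 3 with the smallest difference among pairs with under 10% of 50-mers elsewhere, the 3 pairs with the largest share of such 50-mers, and the 2 highest and 2 lowest of other lists. RPL11, RPL41B, RPL9, RPL7A, RPL34, RPL42 and the overlapping genes were added with their values known. Alternatives were a pseudocount of 1 or of 0.1, a minimum FPKM of 1, 3 other scalings, an adjusted p of 0.01, a 2-fold minimum, intervals apart, doubled SDs, 36-mers and 75-mers, a window of 250 bases and, chosen after seeing the data, members that share no locus and sums over the locus. The values of 1 member and its comparison with its copy are not reported here, and they enter the counts and medians only.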

Additional observations from a re-analysis of the deposited data

Results flagged for a closer look

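The response to doxycycline differed between the strains, by the z test of the difference with Benjamini-Hochberg adjustment, in 60 of the 81 members, each with a lower log2 ratio in tetO-*GLN4* than in the wild type, beside 12.5% of all genes. Among the 5 highest and 5 lowest members this held for 3. The log2 ratio in tetO-*GLN4* minus that in the wild type was -1.77 for RPL8A, -1.52 for RPL31B and -1.57 for RPL18B. For RPL28 it was -4.52 with an SD of 2.93 and was not called, and for RPL40B it was 0.38 with an SD of 0.36. No outlier among cultures could be looked for, since only combined values were analysed.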

How the results depend on the processing

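Pseudocounts of 1 or 0.1, an FPKM minimum of 1 and centring on the median left the call of each of the 81 members in tetO-*GLN4* as it was. Scaling to the same FPKM sum gave 25 lower and 3 higher members and a median of -0.43, and centring on the FPKM-weighted mean gave 15 lower, 3 higher and a median of -0.38. Among all genes 420 were called lower with the same sum and 375 with the weighted mean. With the same sum 3390 of all genes were called higher. That count is not given here for the weighted mean. Both settings add a constant to every ratio. With them the difference between the strains was called lower for 8 and 7 members and higher for 1 and 3, and at an adjusted p of 0.01 it was called lower for 39. The counts over all genes for this difference are not given here. Whether the members stand above that background in these settings is therefore not stated. The weighted centre left 21 of 46 family sums lower. An interval that excludes 0 was found in 6 of 35 pairs, and in 1 of the 17 with under 10% of 50-mers elsewhere. The counts were the same for the difference and for the share. RPL7, RPL14, RPL40, RPL9 and RPL15 had more of their 50-mers elsewhere and did not enter the second count. With doubled SDs the count for the difference was 0. In 250 bases, a shorter window, the motif shares of members and of all genes were 6.17% and 1.70% for Rap1, 4.94% and 12.9% for Abf1, 4.94% and 6.73% for RRPE and 8.64% and 17.0% for PAC, so that RRPE turned from above to below the share of all genes. No paired analysis was possible because no values per culture were analysed, and for the same reason no culture was left out in turn. Precision was limited by the intervals, not by a known depth.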

Other observations

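The share of glutamine codons, the codons read by the tRNA that this synthetase charges, was 3.62% in the median member and 3.68% in the median of all genes. It ran from 0% in RPL36A, RPL41A, RPL41B, RPP1B and RPP2A to 9.17% in RPL35A and RPL35B. Across members the Spearman correlation of that share with the log2 ratio in tetO-*GLN4* was 0.33 over 81 genes and 0.41 over the 65 that share no locus, so that members with more of these codons tended to have higher log2 ratios. The points share the same libraries, and this is a description across genes.

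Values are given for 3 chaperones that escort single large-subunit proteins. RRB1, the chaperone of Rpl3, had a log2 ratio of -0.65 ± 0.23 and was lower. BCP1, the chaperone of Rpl23, had -0.31 ± 0.21 and SQT1, that of Rpl10, had 0.25 ± 0.23, both without a call. All 3 were picked with their values known.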
